A study of Danio rerio with 16 samples.

Results

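The genes described here encode the machinery that brings new secretory and membrane proteins into the endoplasmic reticulum (ER) and the coats and receptors that move them between the ER and the Golgi. They were selected by a rule on gene symbols, which was set with earlier results of these data known. The symbols begin with sec11, sec13, sec16, sec22, sec23, sec24, sec31, sec61, sec62 or sec63, with srp9, srp14, srp19, srp54, srp68, srp72 or srpr, with ssr1 to ssr4 or with tmed, or name a COPI subunit (copa, or copb, cope, copg or copz with at most 1 further digit). In all, 52 of the 32058 features counted in zebrafish larval liver met this rule. All 52 also passed the filter on low counts that kept 17799 features for testing. Among them, 8 belong to the signal recognition particle and its receptor, 6 to the Sec61 channel and its partners, 4 to the TRAP complex and 1 to the signal peptidase. A further 11 belong to the COPII coat, 4 to the Sec22 SNAREs, 7 to the COPI coat and 11 to the p24 family. These classes follow the gene symbol alone. A member need not be a coat subunit, a SNARE or a p24 protein itself, and sec16b and sec23ip are counted with COPII.

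The 16 libraries form 8 groups of 2, and each library was made from the dissected livers of 30 larvae. Wild-type larvae were sampled at 4 and 5 days post fertilization (dpf) under a treatment given as normal, at 6 dpf fasted, at 6 dpf fasted with ethanol, and at 7 dpf fasted or fed. A second 7 dpf fed wild-type group carries the word ventral in its titles, which the labels do not explain. The remaining group is fasted 6 dpf larvae of the line Tg(fabp10a:GCaMP6s), in which the promoter of a hepatocyte gene drives a calcium reporter. The ethanol dose, its duration and the food of fed larvae were not given in the sources used here. Nor do the labels say whether the pools of a group came from separate clutches, so p-values measure the spread between these libraries, which may be technical. The comparisons share libraries in several cases: the 6 dpf fasted group enters those with ethanol, GCaMP, 5 dpf and 7 dpf fasted, the 7 dpf fed group enters those with fasted, ventral and 4 dpf, and the 4 and 5 dpf groups and the 7 dpf fasted group each enter 2.

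A protein bound for secretion carries a signal sequence that the signal recognition particle binds as it leaves the ribosome, and the particle's receptor brings the ribosome to the Sec61 channel in the ER membrane. The TRAP complex beside the channel helps the chain in, and the signal peptidase cuts the signal off. Folded cargo then leaves the ER in vesicles coated with COPII, while COPI-coated vesicles return escaped ER proteins and receptors from the Golgi. The p24 proteins, encoded by genes with tmed symbols, are membrane proteins that cycle in both kinds of vesicle, and Sec22 is a SNARE that helps the vesicles fuse. Hepatocytes secrete most plasma proteins and lipoproteins, so liver makes heavy use of this route.

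Libraries held 18995692 to 28033476 counts, with normalization factors of 0.837 to 1.296. All 14 hepatocyte markers were detected in every group and took 4.99% to 12.9% of counts. Their summed share was 12% to 12.9% in fed and 4.99% to 5.18% in fasted 7 dpf libraries, 5.71% to 6.57% with ethanol and 6.69% to 6.83% without. Markers of other tissues also moved with the groups. Of 23 exocrine pancreas markers, the share was 0.0135% to 0.142% with ethanol against 0.345% to 0.441% without, 0.273% to 0.309% when fed against 0.66% to 1.35% when fasted, and 0.162% to 0.303% at 5 dpf against 0.0526% to 0.0581% at 4 dpf. Only ptf1a was at 0, in the 6 dpf wild-type groups with and without ethanol. The 18 skin markers took 0.0843% to 0.0974% with ethanol against 0.418% to 0.546% without, with krt93 at 0 in both groups and krt96 and krt1-19d at 0 with ethanol. Of 22 tested pancreas markers 19 fell and 1 rose with ethanol, and 8 fell and 1 rose with feeding. The 19 red blood cell features took 0.062% to 0.0802% when fed against 0.00088% to 0.00204% when fasted, and the adult globins hbaa1 and hbba1 were at 0 in both. Of 13 endothelium markers 11 fell with feeding, and of 7 macrophage markers 6 rose. The 11 intestine markers took 0.0512% to 0.0762% when fed against 0.00968% to 0.0133% when fasted, with fabp6 at 0 when fed. The 8 biliary markers took 0.1705% to 0.179% when fed against 0.412% to 0.425% when fasted. Their share was 0.138% to 0.144% at 4 dpf and 0.194% to 0.201% at 5 dpf. A fit that carried scores of the pancreas, skin and red blood cell lists, and of no other list, is given beside the results it moves. Since each group has its own term in that fit, the score slopes rest on differences between replicates within groups. They are then carried over gaps between groups that are often larger, so the fit cannot tell what a lost or turned call comes from. In dissected tissue, fewer cells of a type and less RNA per cell cannot be told apart.

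Together, the 52 genes took 0.688% and 0.696% of all counts at 4 dpf and 0.323% and 0.333% at 5 dpf. In fasted larvae their share was 0.343% and 0.373% at 6 dpf, 0.364% and 0.369% in the GCaMP line, and 0.335% and 0.336% at 7 dpf. It was 0.634% and 0.676% with ethanol, 0.545% and 0.578% when fed, and 0.513% and 0.536% in the ventral group. The shares therefore fell into a higher set, made of 4 dpf, ethanol and both fed groups, and a lower set. The lower set held 5 dpf and the 3 other fasted groups, with no overlap. These are shares of unscaled counts, in which genes at large moved the same way. With scaling by library size alone, the median log2 difference with ethanol was 0.45 over all genes and 0.94 over the members. With feeding these medians were 0.19 and 0.94, and at 5 against 4 dpf they were -0.34 and -1.11. Each gene's group means were then ranked. Of the 52, 19 were highest at 4 dpf, 10 in the ventral group and 9 with ethanol, while 24 were lowest at 7 dpf fasted and 14 at 5 dpf. Over all genes tested, 13.8% were highest at 4 dpf, 13.3% in the ventral group and 17% with ethanol, while 16.7% were lowest at 7 dpf fasted and 8.07% at 5 dpf. The count with ethanol thus lay near that of all genes.

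**Figure D1:**
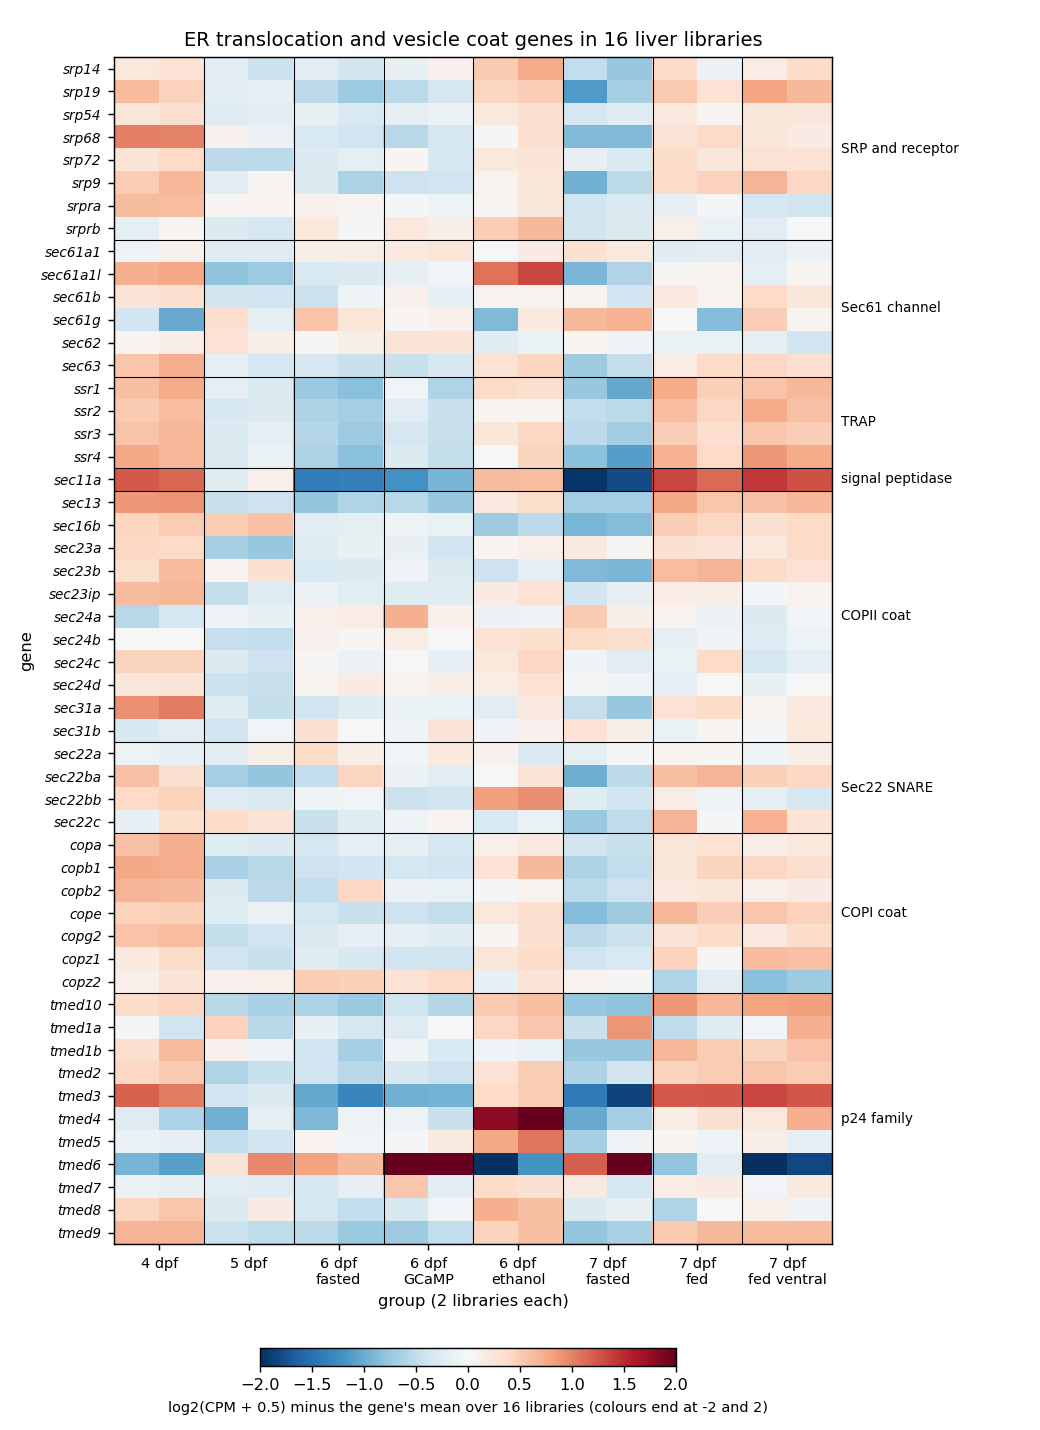
Levels of the 52 genes in each of the 16 libraries, as log2(CPM + 0.5) minus the gene's own mean, with rows grouped by role and 2 columns per group; red is above and blue below that mean, and colours end at -2 and 2. Most rows are red at 4 dpf, with ethanol and in both fed groups, while rows such as tmed6, sec61g and sec24a run the other way.

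For each gene, the log2 of its group mean CPM plus 0.5 was centred on the gene's own mean. Its likeness to the others was measured as Pearson's r with the median of the other 51, over the 8 groups. These points share library composition, and the values are a description. sec63, the Sec61 partner that recruits an ER chaperone to the channel, had the highest r at 0.98. It was followed by copg2 at 0.97, srp54 at 0.97, copb1 at 0.97 and tmed9 at 0.97. In all, 20 genes had an r over 0.9 and 28 over 0.8. This r was computed for the members alone, so no share over all genes stands beside these counts. At the other end 16 had an r under 0.5, with tmed6 at -0.84, sec61g at -0.81, sec24a at -0.77, sec31b at -0.52, sec62 at -0.50, copz2 at -0.48 and sec61a1 at -0.45. The set therefore held members from the channel, COPII, COPI and p24 classes on both sides.

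Among the sampled ages, most calls lay between 4 and 5 dpf. A gene is said to have risen or fallen where the adjusted p, over all 17799 genes, was under 0.1 and the fold change at least 2. At 5 dpf 14 of the 52 genes had fallen and 1 had risen, whereas 7.42% of all genes tested fell and 7.44% rose. Among those that fell were the channel gene sec61a1l, the p24 gene tmed3, the COPII shell genes sec13 and sec31a and 3 COPI genes. By adjusted p alone, 38 members were lower and 1 higher, against 17.3% lower and 17.5% higher of all genes. The median log2 difference was -0.70 over the members and 0.06 over all genes tested.

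Of the 8 genes of the signal recognition particle and receptor, 1 fell at 5 dpf. This was srp68, which encodes an RNA-binding protein of the particle, at 111 and 109.6 CPM (counts per 1e6 of the TMM-scaled library) at 4 dpf and 58.3 and 50.8 at 5 dpf, a log2 difference of -1.02 ± 0.13 (adjusted p = 7.35e-06). Without the second 5 dpf library it was -0.92, short of 2-fold. The other 7 lay between -0.86 and -0.24, and all but srprb had an adjusted p under 0.1. The receptor gene srpra, whose product docks the particle at the ER, stood at 274 and 269 CPM and then 181 and 181, a difference of -0.58 ± 0.11 (adjusted p = 0.000369).

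In the Sec61 channel the paralogs parted. sec61a1l (ENSDARG00000005675), which encodes a pore-forming alpha subunit, stood at 111 and 115 CPM at 4 dpf and 38.2 and 40.4 at 5 dpf. Both 5 dpf values were below both 4 dpf values, and the log2 difference was -1.52 ± 0.13 (adjusted p = 8.02e-08). Its paralog sec61a1 (ENSDARG00000021669) stood at 662 and 749.7 CPM and then 593 and 595, a difference of -0.25 ± 0.11 (adjusted p = 0.0979), below 2-fold. sec63 was at 122 and 137 CPM and then 73.2 and 64.3, a difference of -0.91 ± 0.13 (adjusted p = 2.26e-05). sec62, which encodes another channel partner, stood at 123 and 129.8 and 145 and 129 CPM, and its groups overlapped.

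The 4 TRAP genes moved by nearly the same amount without reaching 2-fold, between -0.92 and -0.86, each with an adjusted p under 0.1. For ssr2 the levels were 391 and 417 CPM at 4 dpf and 218 and 220.3 at 5 dpf. sec11a (ENSDARG00000008936), the catalytic subunit of the signal peptidase, fell from 56.5 and 53.5 CPM to 20.2 and 25.6, a log2 difference of -1.26 ± 0.14 (adjusted p = 1.5e-06). It fell again between 5 dpf and 6 dpf fasted, where it stood at 8.73 and 8.899 CPM, a difference of -1.38 ± 0.15 (adjusted p = 9.53e-07).

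In the COPII coat, 4 of 11 members fell. The inner shell is built of Sec23 and Sec24, which bind the membrane and the cargo, and the outer cage of Sec13 and Sec31. The cage gene sec31a stood at 137 and 149 CPM at 4 dpf and 60.9 and 52.03 at 5 dpf, a difference of -1.34 ± 0.14 (adjusted p = 1.3e-06). sec13 fell from 78.6 and 80.8 to 31.5 and 32.2 CPM, a difference of -1.32 ± 0.12, and so both named cage genes were lower at 5 dpf in both libraries. In the inner shell sec23a fell from 72.1 and 70.5 to 33.8 and 31.9 CPM, a difference of -1.12 ± 0.12 (adjusted p = 1.07e-06), while sec23b stood at 271 and 332 and 219.5 and 262 CPM, a difference of -0.32 ± 0.13 (adjusted p = 0.0727). sec23ip, whose product binds Sec23, also fell, with a difference of -1.03 ± 0.13, but it missed 2-fold without the first 5 dpf library (-0.93). The cargo adaptor sec24a had values of 177 and 203 and then 246 and 233 CPM, a difference of 0.34 ± 0.17 (adjusted p = 0.151). Its 3 paralogs sec24b, sec24c and sec24d lay at -0.48, -0.79 and -0.69, all with an adjusted p under 0.1 and short of 2-fold.

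Of the Sec22 genes, sec22ba fell from 16.3 and 13.5 to 6.502 and 6.09 CPM, a log2 difference of -1.24 ± 0.25 (adjusted p = 0.000855). Of the 7 COPI genes 3 fell, namely copb1 and copb2, which encode the beta and beta' subunits, and copg2, which encodes a gamma subunit. copb1 stood at 172 and 168 CPM and then 64.97 and 68.98, a difference of -1.35 ± 0.13 (adjusted p = 2.46e-07), and its groups were far apart. copb2 and copg2 differed by -1.07 and -1.04. copb2 missed 2-fold without the second 5 dpf library (-0.95) and copg2 without the first (just under 2-fold, at -0.999). copa, the alpha subunit, was at 249.6 and 271 CPM and then 140.0 and 135, a difference of -0.92 ± 0.11 (adjusted p = 4.62e-06) that did not reach 2-fold.

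In the p24 family, tmed3, tmed9 and tmed2 fell. tmed3 (ENSDARG00000028816) stood at 53.8 and 48.4 CPM and then 17.8 and 19.3, a difference of -1.46 ± 0.14 (adjusted p = 4.21e-07). tmed9 stood at 136 and 136 CPM and then 63.3 and 59.7, a difference of -1.15 ± 0.12 (adjusted p = 7.59e-07). tmed2 lay at the fold limit, at -1.0 ± 0.12 (adjusted p = 4.49e-06), and 5 of the alternative settings took it below 2-fold. tmed10 had nearly the same difference, -0.9989 ± 0.11 (adjusted p = 2.47e-06), and was just short of the limit. tmed6, at 28 and 22 counts and then 58 and 103, rose by 2.11 (adjusted p = 0.0814), a call that each of the 4 fits without 1 library ended.

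Scaling by library size alone put the median of all genes at -0.34 at 5 against 4 dpf, and 31 members then fell with a median of -1.11. The share of all genes called was not computed for this or any other alternative fit, so such counts have no background beside them. With the 3 marker scores in the fit, 17 members fell, but sec11a, tmed9, sec23ip and tmed2 were not among them. sec11a was then at -0.84 (adjusted p = 0.175), tmed9 at -0.99 (adjusted p = 0.0515), sec23ip at -0.92 and tmed2 at -0.86. tmed6 was at -1.86 (adjusted p = 0.507) in that fit and no longer higher at 5 dpf. The 14 members that fell had the same direction in both fits.

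Later ages brought smaller differences in fasted larvae. Between 5 dpf and 6 dpf fasted, where the change of age comes with fasting, sec11a alone fell, and no member rose by edgeR or DESeq2, while 7.98% of all genes rose and 10.2% fell. At an unadjusted p under 0.05 there were 23 members, against 40.3% of all genes. By adjusted p alone 10 were higher and 11 lower, against 17.5% and 20.2% of all genes. tmed3 was next in size among the lower ones, at -0.85 ± 0.15 (adjusted p = 0.000211), followed by sec16b, a gene for a scaffold of ER exit sites, at -0.77 ± 0.13 (adjusted p = 0.000126). sec24d and sec23a were higher, at 0.57 ± 0.11 (adjusted p = 0.000478) and 0.53 ± 0.12 (adjusted p = 0.00196). Without the first 6 dpf fasted library, 2 members fell and 1 rose.

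Between 6 and 7 dpf of fasting no member was called in the model of all 16 libraries or by DESeq2. Over all genes, 2.69% rose and 4.12% fell. At an unadjusted p under 0.05 there were 15 members, against 27.1% of all genes, and the median was -0.16. sec16b was lower by adjusted p, with 16.8 and 17.2 CPM at 6 dpf and 10.2 and 10.6 at 7 dpf, a difference of -0.71 ± 0.13 (adjusted p = 0.00129). sec23b, at 173 and 176 CPM and then 116 and 113, differed by -0.61 ± 0.13 (adjusted p = 0.00421). Both 7 dpf values were below both 6 dpf values for these COPII genes. Without either the first 6 dpf or the second 7 dpf library, 1 member fell.

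In fasted 6 dpf larvae, some genes at the entry to the ER and some of the p24 family rose with ethanol. In all, 9 members rose and 1 fell, against 11.8% and 11.1% of all genes tested. Those that rose were srp19, sec61a1l, ssr1, sec11a and the p24 genes tmed3, tmed4, tmed8, tmed9 and tmed10. Differences between the role classes were not tested. By adjusted p alone 35 members were higher and 4 lower, against 22.9% and 21.5% of all genes. The median log2 difference was 0.49 over the members and 0 over all genes tested.

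srp19, whose product binds the RNA of the signal recognition particle, stood at 15.6 and 13.5 CPM without ethanol and 30.7 and 32.1 with it. Both ethanol values were above both others, and the difference was 1.11 ± 0.16 (adjusted p = 1.73e-05). Another 6 of the 8 genes of its class were higher by adjusted p but short of 2-fold, with srp14 at 0.96 ± 0.19. srpra was the exception, at 186 and 183 CPM without and 183 and 205 with ethanol, a difference of 0.07 ± 0.11 (adjusted p = 0.63).

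In the channel, sec61a1l stood at 54.3 and 55.2 CPM without ethanol and 144 and 171 with it, the highest level among the 8 groups. The difference was 1.52 ± 0.13 (adjusted p = 3.57e-08). sec61a1, the pore paralog, stood at 767 and 782 CPM without and 705 and 795 with ethanol, a difference of -0.05 ± 0.11 (adjusted p = 0.779), and the groups overlapped. sec63 was higher, at 64.9 and 60.4 CPM and then 99.9 and 110.3, by 0.75 ± 0.13, short of 2-fold. The small channel gene sec61g, for a gamma subunit that crosses the membrane once, had replicates far apart with ethanol, at 3.17 and 7.17 CPM, and differed by -0.72 ± 0.38 (adjusted p = 0.151).

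All 4 TRAP genes were higher by adjusted p, between 0.71 and 1.14. ssr1, at 109 and 102 CPM without and 237 and 228 with ethanol, was the member past 2-fold, at 1.14 ± 0.15 (adjusted p = 1.05e-05). sec11a stood at 8.73 and 8.899 CPM without and 37.2 and 37.03 with ethanol. The replicates of each group were nearly equal, and the difference was 2.07 ± 0.15 (adjusted p = 3.42e-09).

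The coats moved within 2-fold of the fasted level. None of the 11 COPII, 4 Sec22 and 7 COPI genes was called by edgeR or DESeq2, though 14 of these 22 had an unadjusted p under 0.05, against 45.4% of all genes. In COPII, sec13 came nearest, at 24.8 and 28.1 CPM without and 49.3 and 55.1 with ethanol, a difference of 0.98 ± 0.12 (adjusted p = 3.84e-06). sec16b was lower, at 16.8 and 17.2 and 11.8 and 13.5 CPM, by -0.43 ± 0.13 (adjusted p = 0.0133). sec23b did not differ beyond its error, at 173 and 176 and 160.4 and 188 CPM, a difference of 0.00 ± 0.13 (adjusted p = 0.991). Among the Sec22 genes sec22bb stood at 16.2 and 16.6 and 30.6 and 33.2 CPM and differed by 0.96 ± 0.14 (adjusted p = 1.87e-05). Its paralog sec22ba had fasted values of 7.44 and 14.7 CPM that enclosed the ethanol values of 10.8 and 13.1. In COPI, copb1 stood at 76.5 and 77.99 and 125 and 160.3 CPM, a difference of 0.88 ± 0.12 (adjusted p = 1.64e-05). The COPI zeta subunits parted, with copz1 higher at 0.59 ± 0.13 and copz2 lower at -0.44 ± 0.15 (adjusted p = 0.0249). copb2 also had a fasted pair far apart, 109 and 204 CPM, around the ethanol values of 149 and 162.

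The p24 family held the largest differences. tmed4 (ENSDARG00000024954) had only 5 and 15 counts without ethanol and 153 and 150 with it, or 0.2297 and 0.767 against 4.22 and 5.27 CPM. Both ethanol values were above every other library, and the difference was 3.25 ± 0.62 (adjusted p = 0.000412). tmed3 stood at 11.3 and 9.21 CPM without and 31.02 and 33.8 with ethanol, a difference of 1.66 ± 0.15 (adjusted p = 6.48e-08). tmed10 (ENSDARG00000041391), at 120.0 and 109.9 and 264 and 277 CPM, differed by 1.24 ± 0.11 (adjusted p = 1.05e-07), and tmed9, at 58.8 and 50.8 and 116 and 129 CPM, by 1.16 ± 0.12 (adjusted p = 3.17e-07). tmed8, at 4.87 and 4.35 and 10.6 and 9.85 CPM, differed by 1.15 ± 0.24 (adjusted p = 0.000908), so 5 members of the family rose. tmed2 and tmed5 were higher by 0.88 and 0.93, short of 2-fold.

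The member that fell was tmed6, which had 98 and 78 counts without ethanol and 0 and 21 with it, a difference of -3.62 ± 0.90 (adjusted p = 0.0103). The fit of the 2 groups alone gave an adjusted p of 0.107. Its level moved with the exocrine pancreas markers, which took 0.441% and 0.345% of counts in the fasted libraries and 0.0135% and 0.142% in the ethanol ones. It also had 259 and 271 counts in the GCaMP libraries, where the markers took 0.979% and 1.14%, and 2 and 6 in the ventral libraries, where they took 0.021% and 0.0686%. With the 3 marker scores in the fit the ethanol difference of tmed6 was 0.82 with an adjusted p of 0.785.

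Other settings moved the number of members that rose with ethanol, and the share of all genes called was not computed for them. Scaling by library size alone put the median of all genes at 0.45, and 23 members then rose. Leaving out the first ethanol library gave 16, and using the GCaMP libraries as the reference, an alternative chosen after seeing the data, gave 7. Of the 9, srp19, ssr1 and tmed8 then lay at 0.92, 0.65 and 0.90, short of 2-fold. The fit with the 3 marker scores gave 11, though srp19 and tmed8 were not among them.

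**Figure D2:**
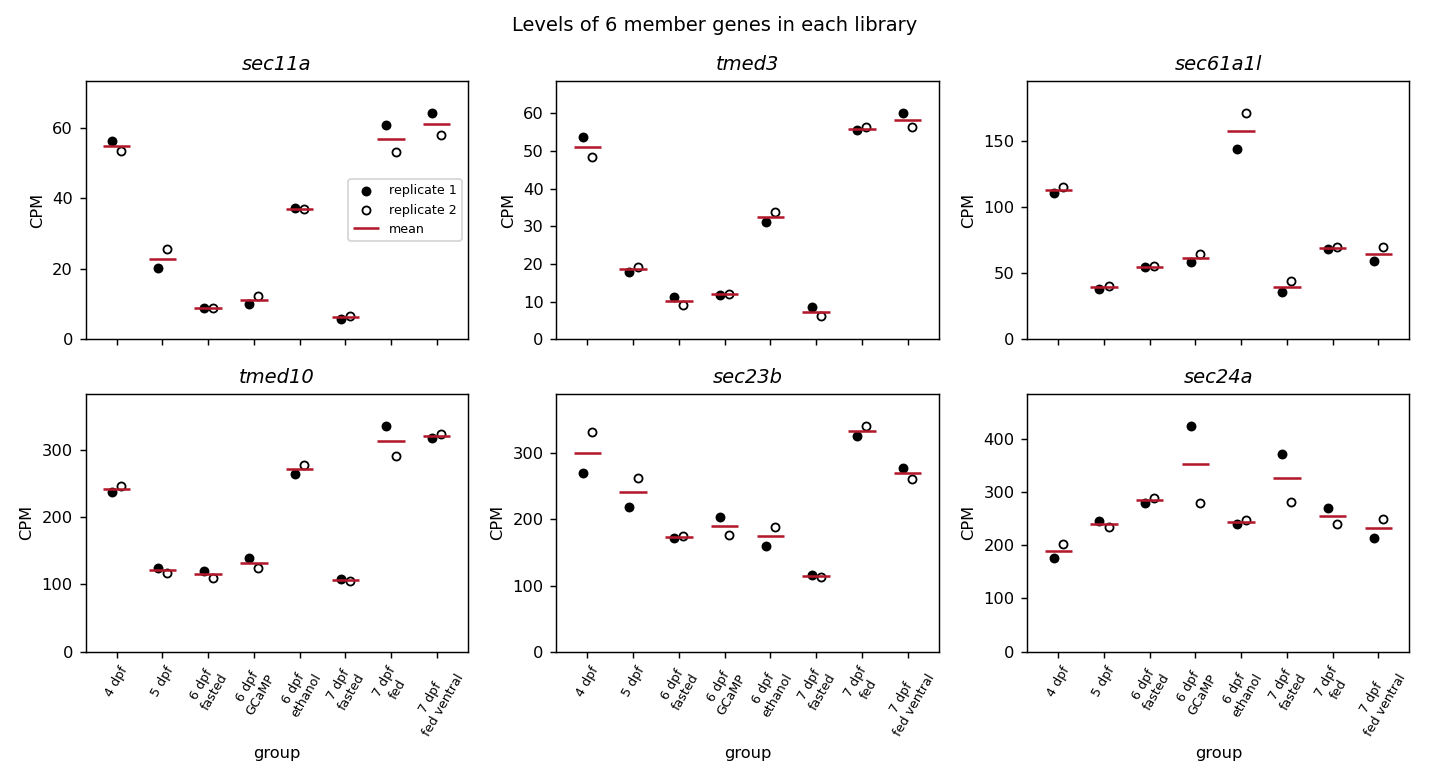
CPM of 6 genes in each library, on axes that start at 0, with filled circles for replicate 1, open circles for replicate 2 and red bars for the mean of 2. sec11a and tmed3 are high at 4 dpf and in both fed groups and intermediate with ethanol, while sec61a1l is highest with ethanol. sec23b is lowest at 7 dpf fasted, and its ethanol values are near those at 6 dpf fasted.

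Fed livers at 7 dpf had higher levels of genes from nearly every role class. In all, 19 of the 52 genes rose against fasted livers and 2 fell, against 20.7% and 16.8% of all genes tested. They included all 4 TRAP genes, sec11a, and members of the recognition particle, both coats, the Sec22 SNAREs and the p24 family. By adjusted p alone 36 members were higher and 6 lower, against 29.9% and 27.5% of all genes. The median log2 difference was 0.75 over the members and 0.00 over all genes tested.

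All 8 genes of the recognition particle and its receptor were higher by adjusted p, and srp19, srp68 and srp9 passed 2-fold. srp19 stood at 10.01 and 14.1 CPM fasted and 32.7 and 27.7 fed, a difference of 1.33 ± 0.16 (adjusted p = 1.1e-06). srp68 stood at 29.4 and 29.5 and 66.5 and 71.3 CPM, a difference of 1.23 ± 0.13 (adjusted p = 2.28e-07). srp9, which encodes a small subunit that binds the particle's RNA, stood at 6.997 and 9.54 and 18.6 and 19.6 CPM, a difference of 1.21 ± 0.18 (adjusted p = 1.92e-05). In all 3, both fed values were above both fasted values. srpra was again the least changed of the class, at 0.24 ± 0.11 (adjusted p = 0.0715).

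No channel gene rose by edgeR or DESeq2, and 4 of the 6 had an unadjusted p under 0.05, against 56.3% of all genes. sec63, at 49.95 and 58.5 CPM fasted and 91.01 and 108 fed, was higher by 0.88 ± 0.13, and sec61a1l, at 35.4 and 43.99 and 68.5 and 69.4 CPM, by 0.80 ± 0.13. sec61a1 was lower, at 873 and 808 CPM fasted and 601 and 607 fed, by -0.48 ± 0.11 (adjusted p = 0.00112). The 2 pore paralogs thus lay on opposite sides of 0 with an adjusted p under 0.1 each. sec61g fell, with 10.1 and 10.4 CPM fasted and 6.204 and 3.17 fed, a difference of -1.14 ± 0.38 (adjusted p = 0.0226). That call rested on the second fed library, without which the difference was -0.71, and it was -0.40 with the ventral libraries as the fed group.

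The 4 TRAP genes rose together. ssr1 stood at 107 and 89.1 CPM fasted and 306 and 253 fed, a difference of 1.51 ± 0.16 (adjusted p = 1.59e-07). ssr4 stood at 68.8 and 56.3 and 198 and 161 CPM, a difference of 1.52 ± 0.16 (adjusted p = 1.56e-07). ssr2 and ssr3 lay just past 2-fold, at 1.04 and 1.03, and without the first fed library they missed it, at 0.98 and 0.995. ssr3 also missed it without the second fasted library, at 0.96. sec11a (ENSDARG00000008936) stood at 5.85 and 6.56 CPM fasted and 60.8 and 53.1 fed. This was the largest rise among the members, at 3.198 ± 0.15 (adjusted p = 5.13e-12).

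In COPII, sec23b, sec16b and sec13 rose. sec23b (ENSDARG00000019360) stood at 116 and 113 CPM fasted and 326 and 342 fed, a difference of 1.55 ± 0.13 (adjusted p = 1.34e-08). sec16b stood at 10.2 and 10.6 and 27.8 and 26.2 CPM, a difference of 1.38 ± 0.13 (adjusted p = 4.98e-08), and sec13 at 26.5 and 26.6 and 73.97 and 63.5 CPM, a difference of 1.37 ± 0.12 (adjusted p = 2.38e-08). The replicates of these genes lay close beside the gap between the groups. sec31a was at 52.4 and 42.5 and 88.5 and 93.6 CPM and differed by 0.94 ± 0.14, just short of 2-fold. sec23a stood at 61.5 and 55.3 and 67.2 and 65.4 CPM, a difference of 0.18 ± 0.12 (adjusted p = 0.202). None of the 4 cargo adaptor genes rose, with sec24b lower at -0.49 ± 0.11 (adjusted p = 0.0014) and sec24a at -0.36 ± 0.17 (adjusted p = 0.086), while sec24c was at 0.31 ± 0.15 and sec24d at -0.03 ± 0.11.

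Of the Sec22 genes, sec22ba rose from 5.18 and 7.28 to 16.5 and 17.4 CPM, a difference of 1.45 ± 0.25 (adjusted p = 8.13e-05), which was 0.39 (adjusted p = 0.9) with the 3 marker scores in the fit. sec22c, with only 8 and 10 counts fasted and 34 and 22 fed, rose by 1.61 ± 0.58, and the call was lost without the first fasted or the first fed library. In COPI, cope, the epsilon subunit, stood at 35.6 and 39.8 CPM fasted and 103 and 92.3 fed, a difference of 1.37 ± 0.11 (adjusted p = 8.17e-09). Another 5 of the 7 COPI genes were higher by 0.62 to 0.91, short of 2-fold. copz2 was the exception, at 29.8 and 28.8 CPM fasted and 18.7 and 24.3 fed, a difference of -0.44 ± 0.15 (adjusted p = 0.0188).

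In the p24 family 5 genes rose. tmed3 stood at 8.503 and 6.15 CPM fasted and 55.5 and 56.4 fed, a difference of 2.93 ± 0.15 (adjusted p = 1.65e-11). tmed10 stood at 109 and 105 and 336 and 291 CPM, a difference of 1.55 ± 0.12 (adjusted p = 1.95e-09), and tmed9 at 49.3 and 54.04 and 123 and 133 CPM, a difference of 1.31 ± 0.12 (adjusted p = 2.71e-08). tmed1b, at 4.83 and 4.82 and 13.7 and 12.2 CPM, rose by 1.42 ± 0.19. tmed4 rose from 4 and 7 counts to 19 and 29, by 2.03 ± 0.68, and lost the call without the first fasted library. tmed6 fell, with 136 and 272 counts fasted and 22 and 48 fed, a difference of -2.66 ± 0.77 (adjusted p = 0.0159), and lost the call without the second fasted or the first fed library. The exocrine pancreas markers took 0.66% and 1.35% of counts in these fasted libraries and 0.309% and 0.273% in the fed ones, and with the 3 marker scores in the fit the difference of tmed6 was -0.036 (adjusted p = 1).

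With the 3 marker scores in the fit, which left 5 residual degrees of freedom, 9 members rose with feeding and none fell, and the median over the members was 0.81 while that over all genes was 0.14. Of those named above, sec11a was then at 3.60, tmed3 at 2.35, srp19 at 2.12 and tmed10 at 1.48, each with an adjusted p under 0.1. sec23b (1.31), sec13 (1.05), sec16b (1.47) and the TRAP genes (0.70 to 0.94) kept their direction with an adjusted p of 0.117 to 0.499. srp68 (1.19), tmed1b (1.91), sec22c (2.24), tmed4 (0.95) and sec22ba (0.39) also lost the call, with an adjusted p of 0.194 to 0.914.

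**Figure D3:**
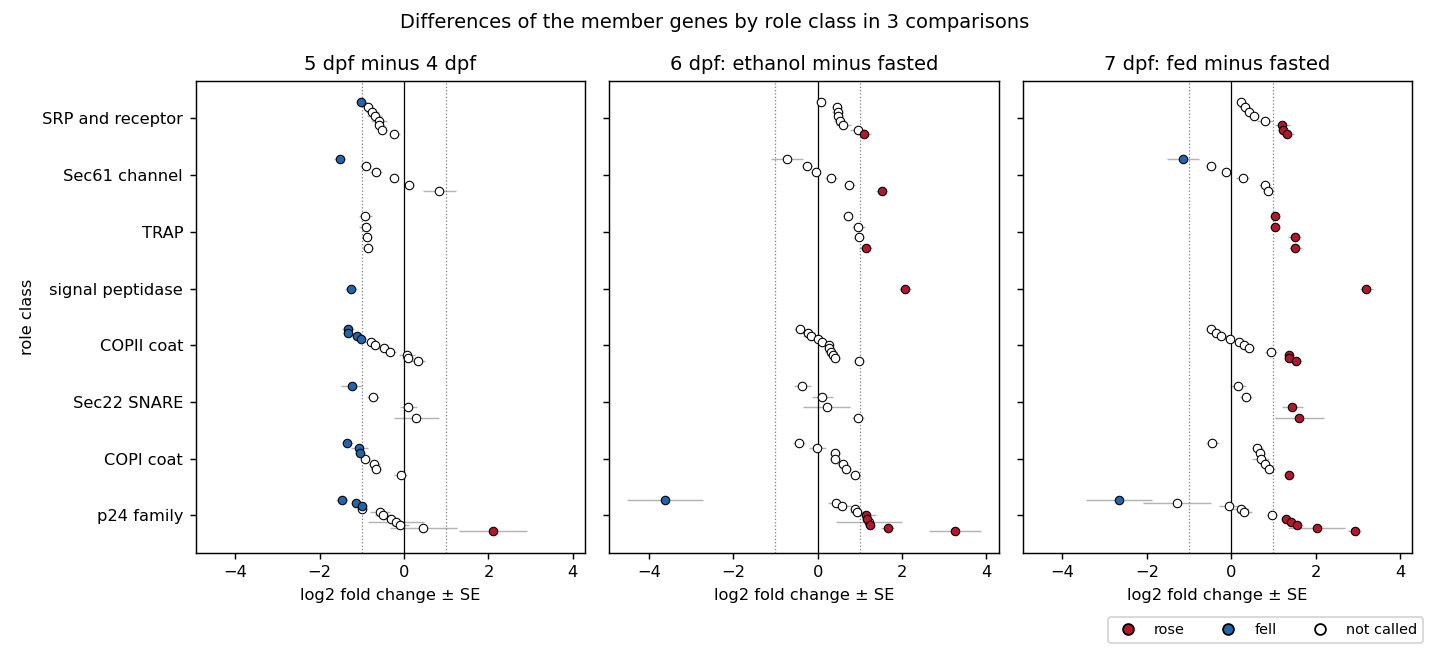
Log2 fold changes with standard errors for the 52 genes, by role class, in 5 dpf against 4 dpf, ethanol against fasted at 6 dpf, and fed against fasted at 7 dpf; filled points passed both limits and dotted lines mark 2-fold. TRAP genes and sec11a lie on one side of 0 in each panel, while coat genes lie on both sides of 0 in all 3 panels, and tmed6 and sec61g run opposite to most members.

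Ethanol and feeding were compared directly, since they share no library, although their larvae differ by 1 day of age. Of the 9 members that rose with ethanol 7 also rose with feeding, 77.8% of the ethanol list and 36.8% of the feeding list. Over all genes tested, 1009 rose with both, 47.9% and 27.4% of the respective lists. The 7 were srp19, ssr1, sec11a, tmed3, tmed4, tmed9 and tmed10, and of these sec11a, tmed3 and tmed9 also fell between 4 and 5 dpf. For genes at large, the overlap with the fall at 5 dpf was not computed. Across the 52 members, the log2 differences with ethanol and feeding had a Pearson's r of 0.69 and a Spearman's rho of 0.52, given as a description, since genes are not independent.

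A test of the difference between both effects, over all genes, set 7 members apart, with 2 higher and 5 lower under ethanol. In the same test 14.6% of all genes were higher and 16.5% lower, so the members were set apart less often than genes at large. The largest among the lower was sec16b, at -1.801 ± 0.18 (adjusted p = 3.11e-07), which was lower with ethanol (-0.43) and rose with feeding (1.38). sec23b differed by -1.54 ± 0.18 (adjusted p = 2.46e-06), with 0.00 under ethanol and 1.55 under feeding. Both COPII genes were therefore higher in fed than in fasted 7 dpf livers, while their ethanol values stood near or below those of 6 dpf fasted larvae. The fasted levels of both were lower at 7 dpf than at 6 dpf, and the ethanol values stood above the 7 dpf fasted ones.

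sec22ba differed by -1.33 ± 0.35 (adjusted p = 0.00519), but its fasted 6 dpf pair was far apart and without the second of these libraries the difference was -0.76, short of the limit. tmed3 and sec11a rose in both and by more with feeding, with differences of -1.27 ± 0.21 (adjusted p = 8.49e-05) and -1.13 ± 0.21 (adjusted p = 0.000267). tmed8 was higher with ethanol by 1.197 ± 0.34 (adjusted p = 0.00989), and had 5.14 and 5.64 CPM fasted and 3.996 and 6.35 fed at 7 dpf; without the first fed library the difference was 0.89. tmed1a was called at 2.48 ± 1.13 (adjusted p = 0.0952) on 6 to 38 counts a library, and 7 of the 8 fits without 1 library ended that call. sec61a1l, the channel gene that rose with ethanol and was not called with feeding, differed by 0.72 ± 0.18 (adjusted p = 0.0038), which is short of the limit of 1.

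With the 3 marker scores in the fit none of the 7 passed both limits; sec16b was at -1.70 (adjusted p = 0.12), sec23b at -1.33 (adjusted p = 0.215) and sec11a at -1.87 (adjusted p = 0.112).

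**Figure D4:**
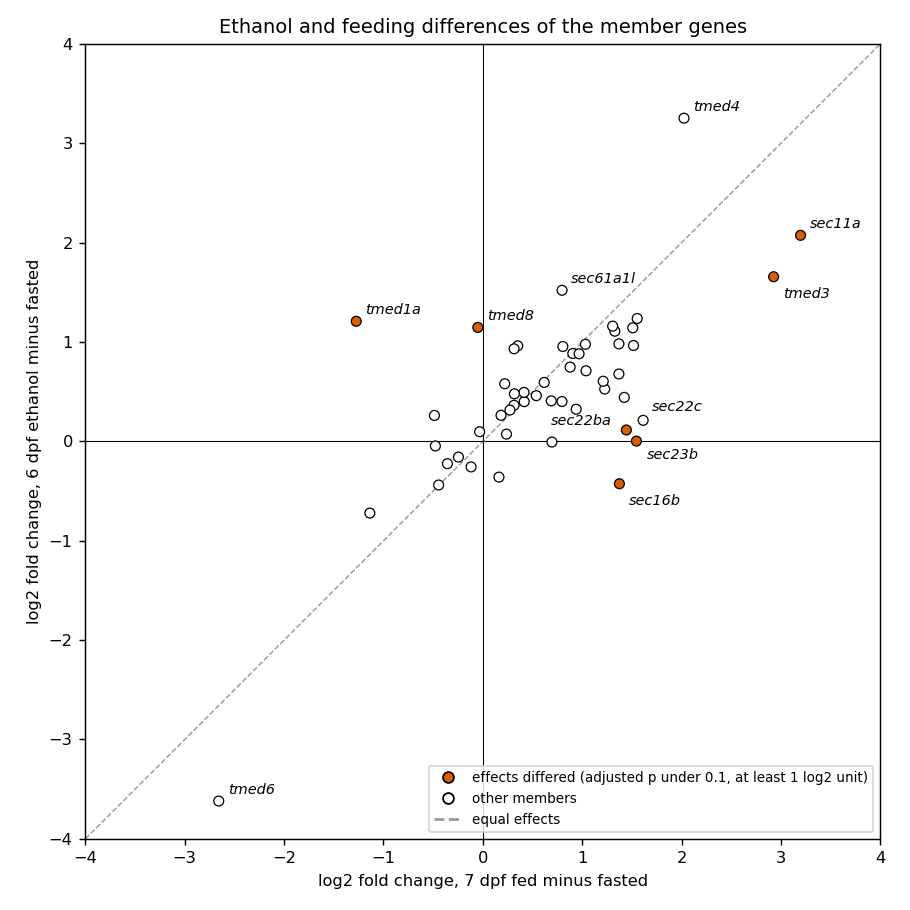
Log2 fold change with ethanol at 6 dpf (vertical) against that with feeding at 7 dpf (horizontal) for the 52 genes; orange points are the 7 whose effects differed, and the dashed line marks equal effects. sec11a and tmed3 lie far to the right and below the line, sec16b, sec23b and sec22ba lie right near 0 on the vertical axis, and tmed6 lies low on both axes.

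The share of each paralog within its pair shows how subunits with the same place in a complex moved apart. These shares are a description, and since similar copies can divide reads, a small share is uncertain. sec61a1l made up 14.3% and 13.3% of the counts of its pair with sec61a1 at 4 dpf, 6.04% and 6.36% at 5 dpf and 6.62% and 6.59% at 6 dpf fasted. With ethanol its share was 16.9% and 17.7%, the highest of all groups. It was 3.895% and 5.16% in fasted and 10.2% and 10.3% in fed 7 dpf larvae. The replicates lay close together beside the gaps between these groups.

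For the inner COPII shell, sec23a made up 13.4% and 10.8% of the sec23a and sec23b counts at 5 dpf, the lowest share, and 34.7% and 32.9% at 7 dpf fasted, the highest. When fed it made up 17.1% and 16.1%. The levels of sec23a differed less between these 7 dpf groups than those of sec23b given above, so the share moved with sec23b. In RefSeq's annotation of GRCz12tu srp54 and sec23a are next to each other, and srp54 stood at 95.4 and 102 CPM at 7 dpf fasted and 138 and 124 when fed. In COPI, copz2 made up 51.9% and 52.7% of the zeta pair at 6 dpf fasted and 32.4% and 37.1% with ethanol. In the ventral group it was 18.4% and 20.4%, the lowest share. For the p24 gamma proteins, tmed3 made up 22.5% and 23.5% of the counts it shares with tmed7 at 7 dpf fasted and 66.04% and 66.1% when fed. tmed7 itself stood at 29.2 and 20.1 CPM fasted and 28.6 and 28.96 fed, so the share moved with tmed3.

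**Figure D5:**
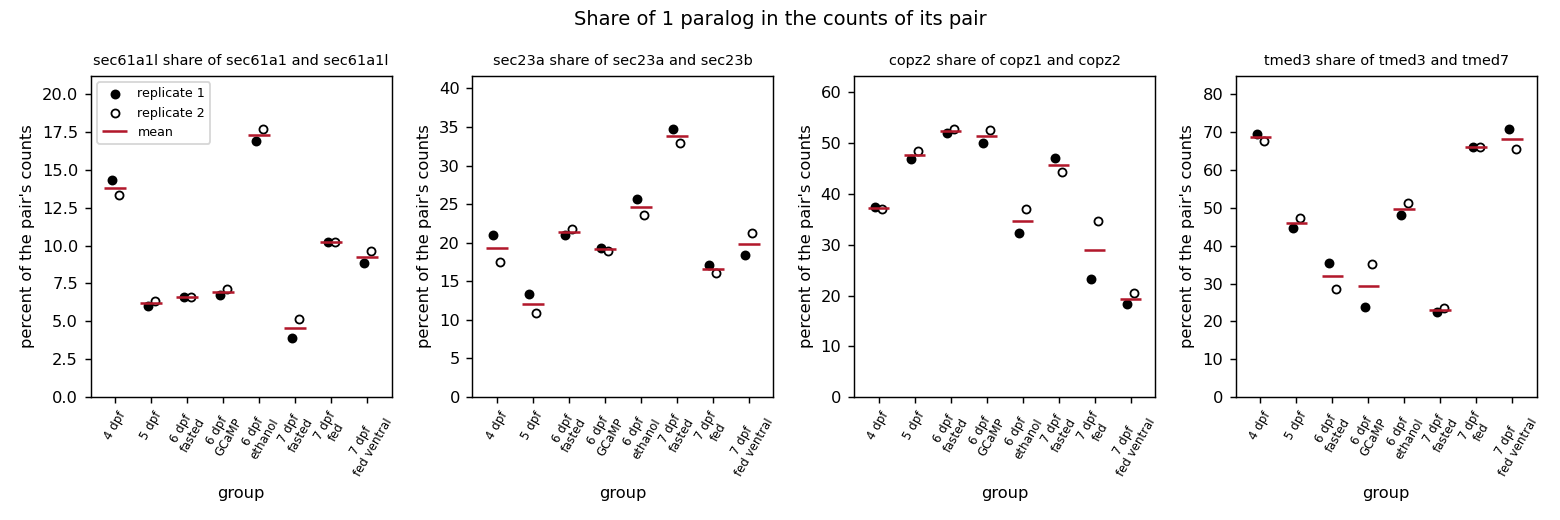
Share of 1 paralog in the summed counts of its pair, in percent, for each library, with circles for replicates and red bars for means. The sec61a1l share is highest with ethanol and lowest at 7 dpf fasted, sec23a is highest at 7 dpf fasted, copz2 is lowest in the ventral group, and tmed3 is highest at 4 dpf and in both fed groups.

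Between the GCaMP line and wild type, both fasted at 6 dpf, no member was called in the model of all 16 libraries or by DESeq2. Over all genes, 0.714% rose and 0.247% fell. At an unadjusted p under 0.05 there were 8 members, against 14.3% of all genes, and the member with the smallest adjusted p was ssr1, at 175 and 120.1 CPM against 109 and 102, a difference of 0.49 ± 0.15 (adjusted p = 0.121). The first GCaMP library stood apart from the second for sec24a (424 and 279 CPM) and tmed7 (38.1 and 22.2 CPM). tmed6 was not called, with 98 and 78 counts in wild type and 259 and 271 in the GCaMP line. The median difference over the members was 0.08.

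Between the ventral fed group and the other fed group, no member was called in the model of all 16 libraries or by DESeq2. Over all genes, 0.5% were higher and 0.663% lower. An unadjusted p under 0.05 was found for 8 members, against 12.6% of all genes. sec24c was lower, at 33.8 and 37.8 CPM against 39.2 and 57.3, by -0.43 ± 0.15 (adjusted p = 0.202), and copz1 higher, at 69.6 and 67.2 against 61.6 and 45.6 CPM, by 0.35 ± 0.13 (adjusted p = 0.237). Neither adjusted p passed the limit. tmed6, at 2 and 6 counts in the ventral group and 22 and 48 in the other fed group, was also not called. sec11a and tmed3 stood at 64.2 and 58.1 and at 60.01 and 56.3 CPM, near their levels in the other fed libraries.

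Fed larvae at 7 dpf were also set against 4 dpf, another group in the higher set. No member was called by edgeR or DESeq2, against 6.72% of all genes higher and 2.89% lower, while 16 had an unadjusted p under 0.05, against 29.6% of all genes. By adjusted p alone 2 members were higher and 12 lower, against 12.2% and 11.2% of all genes, and the median was -0.11. srpra was lower, at 157 and 171 CPM against 274 and 269, by -0.73 ± 0.11 (adjusted p = 9.03e-05), and sec61a1l at 68.5 and 69.4 against 111 and 115 CPM, by -0.71 ± 0.13 (adjusted p = 0.000611). tmed10 was higher, by 0.37 ± 0.11 (adjusted p = 0.0284). sec11a stood at 60.8 and 53.1 CPM fed and 56.5 and 53.5 at 4 dpf, and the groups overlapped. Without the second fed library 1 member fell.

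Genes that work beside the members were counted from lists drawn from general knowledge. The lists were chosen with earlier results of these data known, so their counts are a description. Of all genes, 11.8% rose and 11.1% fell with ethanol, 20.7% and 16.8% with feeding, and 7.42% fell at 5 dpf. Of 3 further signal peptidase subunits, spcs1, spcs2 and spcs3, all rose with feeding and all fell at 5 dpf, and 1, spcs3, rose with ethanol. spcs3 had log2 differences of 1.89 ± 0.16 with feeding and 1.53 ± 0.15 with ethanol. Of 12 oligosaccharyltransferase genes, which add sugar chains to the entering protein, 6 rose with ethanol, 11 rose with feeding and 4 fell at 5 dpf, and their medians were 0.89, 1.89 and -0.95. ddost had a difference of 2.71 ± 0.12 with feeding and 1.47 ± 0.12 with ethanol. Of 14 ER chaperone genes 13 rose with ethanol, 14 with feeding, and 14 fell at 5 dpf, with medians of 2.19, 3.38 and -2.59, each farther from 0 than that of the 52 members. calr3b, a calreticulin, differed by 4.53 ± 0.16 with feeding and pdia4, a disulfide isomerase, by 3.40 ± 0.17 with ethanol.

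Of 11 translocon helpers 7 rose and 2 fell with ethanol, 9 rose and 2 fell with feeding and 7 fell at 5 dpf. The 2 that fell in both were naca and btf3, which encode the nascent chain complex on cytosolic ribosomes. tram1, a membrane protein beside the channel, rose by 2.01 ± 0.12 with ethanol and 1.96 ± 0.12 with feeding and fell by 1.79 at 5 dpf. Of 19 cargo receptor and retrieval genes 5 rose with ethanol, 14 with feeding and 7 fell at 5 dpf; lman1, a receptor for glycoproteins, rose by 2.997 ± 0.13 with feeding. Of 28 genes for tethers and SNAREs between ER and Golgi, 1 rose with ethanol, 4 rose and 1 fell with feeding and 1 fell at 5 dpf, all shares below those of all genes. Of 16 genes of the delta subunit and the Arf cycle of COPI, 3 rose and 1 fell with ethanol, 2 rose and 2 fell with feeding and 3 fell at 5 dpf.

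Of 9 genes of the ER membrane complex, an insertase, 2 rose with ethanol, 3 rose with feeding and 1 fell at 5 dpf. Of 6 genes of tail-anchor insertion, get3 rose with both and sgta with feeding. Of the 11 genes listed for COPII assembly, 1 rose with ethanol, 2 rose and 1 fell with feeding and 2 fell at 5 dpf, so the shares that rose were below those of all genes. surf4l, from the family of the cargo receptor Surf4, rose by 1.79 ± 0.12 with ethanol and 2.86 ± 0.13 with feeding, and its difference at 5 dpf was -1.73 ± 0.12. surf4 itself was called in none of these comparisons, at -0.80 ± 0.22 with ethanol (adjusted p = 0.00992), 0.45 ± 0.22 with feeding and 0.21 ± 0.22 at 5 dpf. sar1b, which encodes a small GTPase that starts the coat, rose by 1.31 ± 0.12 with feeding. Its paralog sar1ab was lower, at -0.40 ± 0.18 (adjusted p = 0.0688), short of 2-fold. klhl12, for an adaptor of a ubiquitin ligase, had a difference of -1.397 ± 0.27 with feeding, and tfg, for a protein of ER exit sites, one of -1.095 ± 0.12 at 5 dpf. Of 12 regulators of secretory genes, 1 fell with ethanol, while 1 rose and 2 fell with feeding, near or below the shares of all genes. The one that rose was creb3l3a, a membrane-bound transcription factor of liver, at 2.48 and 2.41 CPM fasted and 61.6 and 74.3 fed, a difference of 4.79 ± 0.21. It stood at 62.5 and 60.2 CPM at 4 dpf, 50.4 and 56.2 at 5 dpf, 5.05 and 3.12 at 6 dpf fasted and 6.03 and 4.71 with ethanol. In the fasted GCaMP line it stood at 9.92 and 8.28 CPM, a rise of 1.149 ± 0.20 over wild type (adjusted p = 0.00549). Its ethanol difference from 6 dpf fasted was 0.39 ± 0.20 (adjusted p = 0.127). Whether its level bears on the members was not tested. Of its paralogs, creb3l3l fell with feeding, at -1.375 ± 0.14 (adjusted p = 1.93e-07), and creb3l3b was not called, at -0.09 ± 0.17. atf6, a sensor of misfolded protein in the ER, stood at 151.6 and 161.5 CPM with ethanol and 78.1 and 85.7 without. Its difference was 0.94 ± 0.11 (adjusted p = 1.96e-06), short of 2-fold. At 7 dpf it stood at 65.05 and 62.8 CPM fasted and 49.6 and 51.3 fed, a difference of -0.34 ± 0.11 (adjusted p = 0.0149). xbp1, a transcription factor of the ER stress response, stood between 165 and 466 CPM over all libraries. It was higher with ethanol by 0.44 ± 0.14 (adjusted p = 0.0204), short of 2-fold. With feeding its difference was -0.15 ± 0.14 (adjusted p = 0.4).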

How the data were processed

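HISAT2, featureCounts and the build GRCz11 are named in the submitters' processing notes. Their versions, the strand setting and the annotation were not given in the sources used here. Per the labels' protocols the library kit was directional. The authors deposited unscaled counts per gene. Of values from 1 to 50, 70.3% to 77.8% were even, against 50.9% to 56.2% of those over 1000, so tests were repeated with counts halved. Replicates differed by more than sampling noise.

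Tests used edgeR 4.0.16 in R 4.3.3, by the quasi-likelihood test with robust dispersions, TMM scaling, the default filter by group and Benjamini-Hochberg adjustment over 17799 genes. One model held all 16 libraries, with 8 residual degrees of freedom. Calls needed an adjusted p under 0.1 and a 2-fold change, the limits of the series design text, where the authors used iDEP 0.951. CPM is counts per 1e6 of the TMM-scaled library. The SE is the log2 fold change over the square root of F. Scripts were tested on simulated data. With 2 libraries a group the smallest exact p is 0.333, so no exact test was used. Replicate numbers were not treated as pairs. Alternatives were other scalings, filters, DESeq2 1.42.0, the groups compared alone, a replicate block, marker scores and leaving out each library. Members and gene lists were chosen with earlier results of these data known. Named genes were the members, up to 4 called genes per list and comparison with the largest changes, uncalled paralogs of such genes, and any regulator. All 52 member identifiers were in the gene name table, and no member symbol stood on more than 1 feature; similar copies may still divide reads.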

Additional observations from a re-analysis of the deposited data

How the results depend on the processing

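RLE scaling changed no call of a named member, and the filter of 100 counts in 2 libraries, halved counts, DESeq2 and the replicate block ended 1 each. The 100-count filter also left out sec22c and tmed1a, whose calls were therefore not tested under it. Numbers below are members called, without the share of all genes, which was not computed for these fits. Library size alone gave 23 that rose with ethanol, 1 that fell with feeding, and 31 that fell and 0 that rose at 5 against 4 dpf. Marker scores gave 0 that fell with ethanol, 9 that rose and 0 that fell with feeding, 0 that rose at 5 dpf, 2 that fell at 7 against 6 dpf fasted and 1 at 7 dpf fed against 4 dpf; of the effect differences 1 was higher and 0 lower for ethanol. With them tmed6 turned to 0.82 with ethanol and -1.86 at 5 dpf, and the effect differences of tmed1a and sec22ba to -0.033 and 0.11; the cause was not tested. The groups compared alone gave 0 that fell with ethanol, and, like no filter, 1 that rose in GCaMP, 1 that fell in ventral and 1 that rose at 7 against 6 dpf. DESeq2 gave 0 that rose at 5 dpf, and the ventral libraries as the fed group, chosen after seeing the data, 1 that fell. With the 100-count filter or the replicate block 1 effect difference was higher for ethanol.

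Leaving out each library gave 9 to 16 that rose and 1 to 2 that fell with ethanol, 18 to 20 and 1 to 3 with feeding, 0 and 13 to 17 at 5 dpf, 0 to 1 and 1 to 2 at 6 against 5 dpf, 0 and 0 to 1 at 7 against 6 dpf and at 7 dpf fed against 4 dpf, and 0 to 2 higher and 5 to 6 lower effect differences. Same-numbered libraries deviated from their group means with correlations of -0.24 to 0.21, and 4 of 28 were over 0.1. No pairing common to all groups was seen, but the check cannot tell whether some groups shared a clutch or day. The replicate block gave 9 that rose with ethanol, 19 with feeding and 15 that fell at 5 dpf. The widest standard errors among the members were those of tmed6, tmed1a, tmed4 and sec22c, each under 40 counts in some libraries.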

Other observations

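The Sec24 cargo adaptors and the Sec31 cage genes also shifted within their families. sec24a made up 46.6% and 49.7% of the summed counts of sec24a to sec24d at 4 dpf, 65.5% and 65.3% at 5 dpf, 67.6% and 62.5% at 7 dpf fasted and 63.7% and 56.8% when fed. sec31b, the scarcer Sec31 gene, made up 6.24% and 6.11% of its pair at 4 dpf, 21.2% and 22.6% at 7 dpf fasted and 10.5% and 11.3% when fed. sec31b itself stood between 8.67 and 14.2 CPM in all 16 libraries. These shares were not tested.

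Within groups, the median ratio of the higher to the lower replicate over the members was 1.07 to 1.13. The widest gaps among members over 5 CPM included copb2 and sec22ba, which were 1.87 and 1.97 times higher in the second than in the first 6 dpf fasted library. sec61g was 2.26 times higher in the second than in the first ethanol library.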
